A study of Mus musculus with 2 samples.

Results

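The proteasome genes of 2 mouse acute promyelocytic leukaemias, called APL#1 and APL#2, were compared by RNA sequencing. Members were the rows of the gene table whose symbol begins with Psma, Psmb, Psmc, Psmd, Psme, Psmf or Psmg and a digit, which gave 49 of the 23235 listed genes. No row with several symbols and no pseudogene row had to be dropped. The symbol rule also takes in Psmc3ip, a meiotic recombination factor that binds Psmc3 and is not a proteasome subunit, so it is given apart. Both leukaemias carried PML-RAR, the fusion that drives this disease, on the C57BL/6-Ly5.2 background. The labels call the source mCG-PML-RAR transgenic, without spelling out the letters, and in another field knock-in. Age is labelled as 10 weeks and treatment as none for both, while VEH stands in both titles without being explained. Non-irradiated C57BL/6-Ly5.1 recipients received 2000000 cells of APL#1 or 200000 cells of APL#2, and CD45.2+ cells were purified from their spleens on magnetic columns. By the series' own design text, leukaemia-initiating cells are not equally frequent in them. With 1 library for each leukaemia nothing was replicated and nothing could be tested, and the leukaemia, the recipient, the cell dose and the library cannot be told apart.

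The proteasome degrades proteins that carry ubiquitin chains. Its barrel-shaped core has outer alpha rings (Psma genes), which gate the entry, and inner beta rings (Psmb genes), of which Psmb5, Psmb6 and Psmb7 carry the cutting sites. Interferon-responsive replacements, Psmb8, Psmb9 and Psmb10, take their places in the immunoproteasome, which is abundant in blood cells and makes peptides suited to MHC class I. A cap with a ring of ATPases (Psmc genes) and further subunits (most Psmd genes) recognises, unfolds and threads in the substrate. Psme genes encode activators, Psmf1 a regulator first described as an inhibitor, and Psmg genes the chaperones that build the core.

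Promoter sequences of 5 beta-type genes are shown, chosen after the values and motif matches were seen: Psmb5 and Psmb6 had ratios like most subunits, and Psmb3, Psmb8 and Psmb9 lower ones. They are the 200 bases before the start in the RefSeq promoter table (GRCm38.p6, another build than the mm9 of the gene table), written 5′ to 3′ along the gene. Capitals mark TGACNNNGC, the core of the antioxidant response element bound by the proteasome gene activator Nfe2l1, or the core of the interferon-stimulated response element (TTTC, any 2 bases, TTTC), each searched on both strands. The windows are Psmb5 at chr14:54617996-54618195 (minus strand), Psmb6 at chr11:70525157-70525356 (plus), Psmb3 at chr11:97703234-97703433 (plus), Psmb8 at chr17:34197995-34198194 (plus) and Psmb9 at chr17:34187331-34187530 (minus).
Psmb5: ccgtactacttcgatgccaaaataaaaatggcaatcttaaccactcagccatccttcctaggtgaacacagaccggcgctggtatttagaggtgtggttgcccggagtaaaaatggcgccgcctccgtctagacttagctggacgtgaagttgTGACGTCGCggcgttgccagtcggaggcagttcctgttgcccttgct
Psmb6: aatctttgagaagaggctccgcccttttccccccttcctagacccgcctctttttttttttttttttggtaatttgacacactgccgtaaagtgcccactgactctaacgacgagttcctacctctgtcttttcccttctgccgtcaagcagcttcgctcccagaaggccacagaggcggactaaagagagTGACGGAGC
Psmb3: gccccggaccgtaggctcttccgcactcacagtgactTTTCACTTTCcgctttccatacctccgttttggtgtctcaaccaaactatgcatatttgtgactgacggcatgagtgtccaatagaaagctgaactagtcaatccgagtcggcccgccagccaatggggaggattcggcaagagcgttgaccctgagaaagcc
Psmb8: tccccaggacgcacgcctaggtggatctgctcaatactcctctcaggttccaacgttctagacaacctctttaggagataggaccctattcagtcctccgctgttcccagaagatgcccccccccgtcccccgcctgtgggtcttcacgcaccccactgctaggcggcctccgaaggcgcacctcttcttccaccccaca
Psmb9: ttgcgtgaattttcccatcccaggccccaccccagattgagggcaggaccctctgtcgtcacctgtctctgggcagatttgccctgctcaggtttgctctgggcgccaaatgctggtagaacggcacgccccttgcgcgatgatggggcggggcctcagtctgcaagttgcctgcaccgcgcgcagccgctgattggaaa

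The search itself used the whole table windows of 300 bases, 250 before and 50 after the start, which were present for 41 of the 49 genes. TGACNNNGC lay in the windows of 6 genes (14.6%), Psmb5, Psmb6, Psmc6, Psmd9, Psmd12 and Psme4, against 17.4% of 2946 measured genes and 14.0% of all 27025 symbols in the table. In Psmb5 it began 47 bases and in Psmb6 9 bases before the start. The interferon-stimulated element core lay in 5 (12.2%), Psmb3, Psmd4, Psmd9, Psme1 and Psmg4, against 3.70% of the measured genes and 3.99% of all. It was found in none of the windows of Psmb8, Psmb9 and Psmb10. Of 2 motifs added after the data were seen, CCGGAAG, read by ETS factors, lay in 15 members (36.6%; 25.6% of measured genes, 9.93% of all). CCAAT lay in 15 as well (36.6%; 44.8% and 41.1%). A match is a match of letters and not a shown binding site.

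Levels are FPKM, fragments scaled to transcript length and library total, so they can be set side by side between genes of a library. A gene is called measured where its mean over both libraries was at least 1 FPKM, as for 4100 genes and 41 of the members. Of the members, 32 were at 1 FPKM or more in both libraries, 8 in APL#1 alone and 1 in APL#2 alone, so the minimum itself admits genes through the library in which they were high. Those under the minimum were Psma8, Psmb11, Psmd5, Psmd9, Psmd10, Psmd11, Psme4 and Psmf1. The total over all genes was 34893.9 FPKM in APL#1 and 35239.9 in APL#2. The median measured gene had an APL#2 to APL#1 ratio of 0.835 (-0.17 on the log2(FPKM + 1) scale), and ratios called relative below are divided by it. All 6 promyelocyte markers looked for were measured, 3 below and 3 above the all-gene median ratio. Mpo (661.8 FPKM in APL#1, 157.3 in APL#2), Elane (32.4, 5.01) and Prtn3 (3.45, 2.45) were below it, and Cebpe (8.20, 7.40), Ctsg (7.89, 8.99) and Ms4a3 (7.85, 15.9; on chromosome 19) above. Every listed B cell, T and NK cell and erythroid marker was under 1 FPKM in both libraries. Of the 5 erythroid markers looked for, 3 were listed, and Hba-a1 and Hbb-b1 had no row.

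The spacing of low values puts 1 FPKM at about 51.4 fragments per kb of transcript for APL#1 and 55.6 for APL#2. The measured members then rested on about 40.5 to 3508 fragments in a library, which gives a counting standard error of 0.04 to 0.31 (median 0.16) for a log2 ratio. This covers counting only and no difference between animals or library preparations. The test statistics in the authors' deposited table imply wider standard errors, 0.66 to 2.06 (median 1.03). In that table no member had a q of 0.05 or less (lowest 0.999997), and 1, Psma8, had a p of 0.05 or less (p 0.0473 in the authors' deposited table), against 0.968% of all genes.

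**Figure D1:**
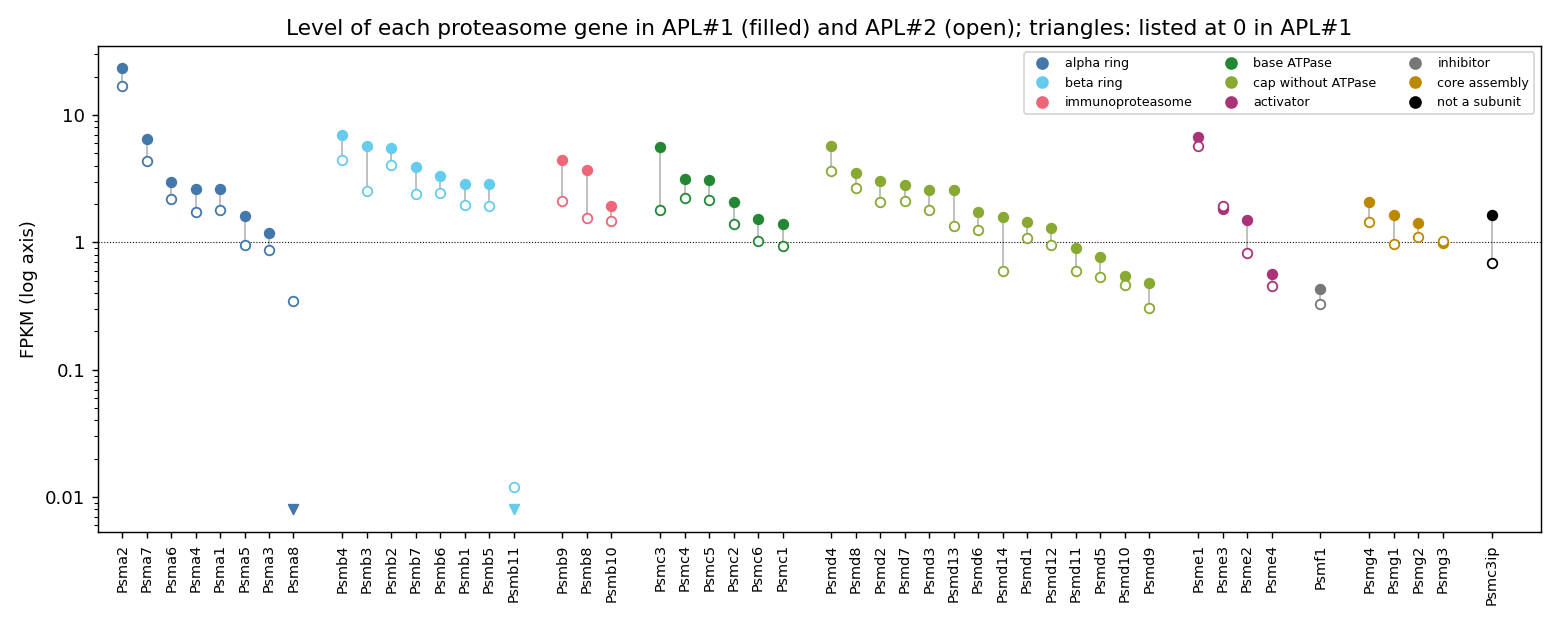
FPKM (log axis) of each of the 49 genes in APL#1 (filled) and APL#2 (open), by class, with 1 library each; triangles stand for a listed 0 and the dotted line for 1 FPKM. Most genes sit between 1 and 7 FPKM, Psma2 stands alone above 10, and the open circle is lower in 45 of the 47 genes with signal in both. Among the 41 measured members it is lower in 39, and APL#2 is lower for 71.6% of all measured genes.

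Proteasome genes stood lower in APL#2 almost throughout, and most of them by a similar, small amount. Of the 47 genes with signal in both libraries, 45 had a lower FPKM in APL#2, and 43 had a ratio below that of the median measured gene. Of the 41 measured members, 39 had a lower FPKM in APL#2, beside 71.6% of all measured genes. Over the 41 measured genes the median ratio was 0.689 (interquartile range 0.611 to 0.736), beside 0.835 (0.687 to 1.05) over all 4100 measured genes. Of these 41, 38 lay below the all-gene median ratio, beside 50% of all measured genes by construction. A relative ratio at least 1.5-fold lower was reached by 7 of 41, where 9.83% of all measured genes reached it, and 1.5-fold higher by none, where 14.1% did. Of these 7, 2 lie in a stretch of chromosome 2 that is lower as a whole and 1 is Psmc3ip. On the log2(FPKM + 1) scale 1 member, Psmc3, was at least 2-fold lower (2.44% of all measured genes) and none at least 2-fold higher (2.1%). In bulk RNA, fewer cells with a transcript and less of it per cell cannot be told apart.

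The alpha ring genes were the most even class of the core. Psma2 had 23.4 FPKM in APL#1 against 17.1 in APL#2, the highest member in both and 3.33 and 2.99 times the next. The other measured alpha genes ran from 1.18 to 6.48 FPKM in APL#1 and from 0.878 to 4.35 in APL#2, with Psma7 highest of them (6.48 and 4.35) and Psma3 lowest. Their ratios lay between 0.597 (Psma5, 1.61 and 0.958 FPKM) and 0.744 (Psma3, 1.18 and 0.878), so all 7 were below the all-gene median and none was 1.5-fold lower. Psma1 (2.61 and 1.78 FPKM), Psma4 (2.65 and 1.72) and Psma6 (2.998 and 2.20) lay between. Psma8, the alpha subunit of germ cells, was listed at 0 in APL#1 and at 0.347 FPKM in APL#2.

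Of the beta ring, 6 of 7 measured genes were as even. Psmb4, which sits at the seam of the assembling core, was the highest (7.04 and 4.43 FPKM), and Psmb2 (5.52 and 4.07) and Psmb1 (2.86 and 1.98) are structural subunits. The catalytic genes stood at 2.86 and 1.94 FPKM (Psmb5, chymotrypsin-like), 3.30 and 2.43 (Psmb6, caspase-like) and 3.91 and 2.39 (Psmb7, trypsin-like), ratios of 0.679, 0.736 and 0.611. Psmb3, a subunit without a cutting site, departed from them with 5.77 FPKM (APL#1) against 2.51 (APL#2), a ratio of 0.436. Its relative log2 difference was -0.77 on the log2(FPKM + 1) scale, while the counting error of its log2 ratio was 0.17. It lies on mm9 chromosome 11 (97564748 to 97574814), in none of the shifted stretches, and its promoter is the one of the 5 printed above that holds the interferon-stimulated element core, 163 bases before the start. The other members with that core had higher ratios: 0.632 (Psmd4), 0.630 (Psmd9, under the minimum), 0.844 (Psme1) and 0.695 (Psmg4). A part of the motif in the value of Psmb3 was not tested. Psmb11, the beta subunit of the thymus, was listed at 0 in APL#1 and at 0.0120 FPKM in APL#2.

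The immunoproteasome subunits were unequal among themselves. Psmb8, the replacement for Psmb5, had 3.69 FPKM in APL#1 against 1.57 in APL#2, a ratio of 0.426. Psmb9, the replacement for Psmb6, stood at 4.41 and 2.12 FPKM, a ratio of 0.481. Both are past the 1.5-fold line, with counting errors of 0.15 and 0.14 (log2). Psmb10, the replacement for Psmb7, stood at 1.92 and 1.49 FPKM, a ratio of 0.774 that is close to the all-gene median (relative ratio 0.928).

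Set against their constitutive partners, Psmb8 and Psmb9 had the higher FPKM in APL#1 and the lower in APL#2. The ratio of Psmb9 to Psmb6 was 1.34 in APL#1 and 0.873 in APL#2, and that of Psmb8 to Psmb5 was 1.29 and 0.810. The ratio of Psmb10 to Psmb7 went the other way, 0.491 and 0.622. These changes in ratio were -0.62, -0.67 and 0.34 on the log2 scale, with counting errors of 0.23, 0.24 and 0.24. Summed over the pairs, immunoproteasome subunits stood at 0.996 of the constitutive ones in APL#1 and 0.767 in APL#2.

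**Figure D2:**
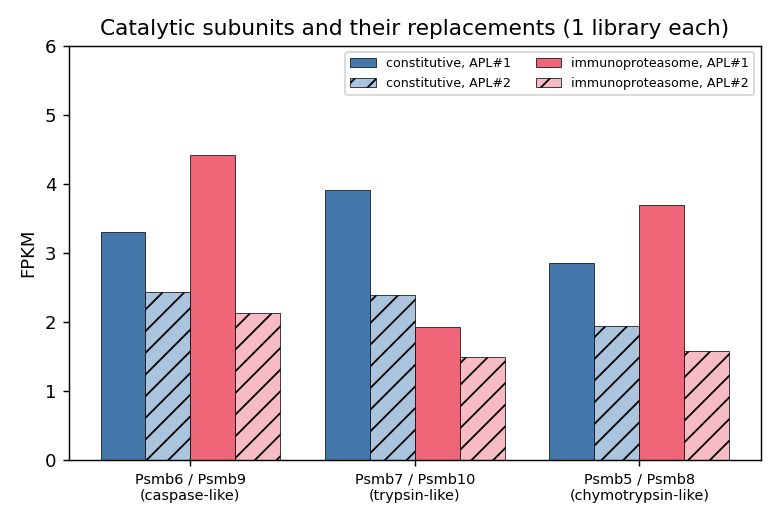
FPKM of the constitutive catalytic subunits (blue) and their immunoproteasome replacements (red) in APL#1 (plain) and APL#2 (hatched), 1 library per bar. Psmb9 and Psmb8 exceed their partners in APL#1 (4.41 against 3.30, 3.69 against 2.86) and fall short of them in APL#2 (2.12 against 2.43, 1.57 against 1.94), while Psmb10 is below Psmb7 in both.

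Psmb8 and Psmb9 are neighbours in the MHC region, mm9 chromosome 17, at 34335140 to 34338399 and 34319044 to 34324275. Between them lies Tap1, which with Tap2 forms the transporter of peptides into the endoplasmic reticulum, 0.225 kb from Psmb9 and 0.969 kb from Psmb8. Tap1 stood at 1.88 and 1.39 FPKM (ratio 0.738) and Tap2 at 3.21 and 1.81 (0.564), so both were lower in APL#2, with ratios above those of the subunit genes beside them. Of 7 measured genes of MHC class I peptide supply, 6 were below the all-gene median, beside 50% of all measured genes. At least 1.5-fold lower were 3, beside 9.83% of all: Calr, calreticulin (119.9 and 48.1 FPKM), Pdia3 (12.9 and 3.30) and B2m (91.8 and 28.8). Pdia3 and B2m lie in the low stretch of chromosome 2, whose bounds were found from these same differences, so of the 3 only Calr lies outside it. Canx, calnexin, stood at 7.14 and 4.11, and Tapbp, tapasin, at 6.83 and 6.80. Interferon signalling genes were mixed. Of 5 measured, 3 were below the all-gene median and none was 1.5-fold away, with Irf1, an activator of immunoproteasome genes, at 1.35 and 0.817 FPKM, Jak1 at 2.83 and 2.15, Irf2 at 2.95 and 3.06 and Ifngr1 at 3.99 and 4.74.

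Other cells of spleen carry the immunoproteasome, so their markers are given beside these values. The cells were purified on CD45.2 from Ly5.1 recipients, and how many recipient cells remained was not tested. Dendritic cell markers summed to 0.828 FPKM in APL#1 and 1.82 in APL#2, B cell markers to 0.161 and 0.323, and T and NK cell markers to 0.0526 and 0.181. The 6 macrophage and monocyte markers summed to 4.13 and 8.26, most of it Vcam1 (3.94 and 7.47). The rest were mixed. Emr1 (0.0230 and 0.537), Csf1r (0.0667 and 0.101) and C1qc (0 and 0.0761) were higher in APL#2, and C1qa (0.0597 and 0.0552) and C1qb (0.0408 and 0.0189) lower. Each of these sums, though not each marker, was higher in APL#2, and Siglech and Ncr1 were listed at 0 in both. The 4 stroma and endothelium markers summed to 3.64 and 1.63, lower in APL#2. Nearly all of that was Pecam1 (3.62 and 1.62), which leukocytes express too, while Cdh5, the defining endothelial gene, was at 0 and 0.00428. Of the platelet markers Itga2b stood at 2.34 and 3.95 and the other 3 were listed at 0, and the 3 listed erythroid markers summed to 0.0472 and 0.0243. The part of such cells in the result was not tested.

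Psmc3 apart, the ATPases of the base had similar ratios. Psmc1 (1.398 and 0.941 FPKM), Psmc2 (2.07 and 1.39), Psmc4 (3.12 and 2.22), Psmc5 (3.10 and 2.17) and Psmc6 (1.53 and 1.03) had ratios between 0.672 and 0.710, although their levels differ by more than 2-fold. The counting errors of these log2 ratios ran from 0.14 (Psmc4) to 0.21 (Psmc1), wider than the ratios are apart, so a shared change cannot be read from their closeness. Psmc3 had 5.62 FPKM in APL#1, the highest ATPase there, against 1.79 in APL#2, where it ranked below Psmc4 and Psmc5. Its ratio of 0.318 was the lowest of all members, below all but 1.63% of measured genes. The log2 ratio was -1.65, with a counting error of 0.13 and an error of 0.90 implied by the authors' deposited table.

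Most cap subunits without ATPase activity were lower by a similar amount, again with an exception on chromosome 2. The scaffold genes Psmd1 (1.46 and 1.08 FPKM) and Psmd2 (3.01 and 2.08), the ubiquitin receptor gene Psmd4 (5.74 and 3.63, the highest of the class), and the lid genes Psmd3 (2.57 and 1.81), Psmd6 (1.73 and 1.26), Psmd7 (2.84 and 2.11), Psmd8 (3.51 and 2.69) and Psmd12 (1.30 and 0.958) had ratios between 0.632 and 0.766. Psmd13, of the lid, was lower, at 2.56 and 1.34 FPKM, a ratio of 0.525. Psmd14, the deubiquitinase that strips the chain from the substrate, stood at 1.58 and 0.593 FPKM, a ratio of 0.374. Of the rest, under the minimum, the lid gene Psmd11 stood at 0.909 and 0.599 FPKM. The chaperone genes of base assembly stood at 0.771 and 0.537 (Psmd5), 0.484 and 0.305 (Psmd9) and 0.545 and 0.465 (Psmd10). Psmd10 alone of this class had a relative ratio above 1 (1.02), and without centring it too was lower.

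**Figure D3:**
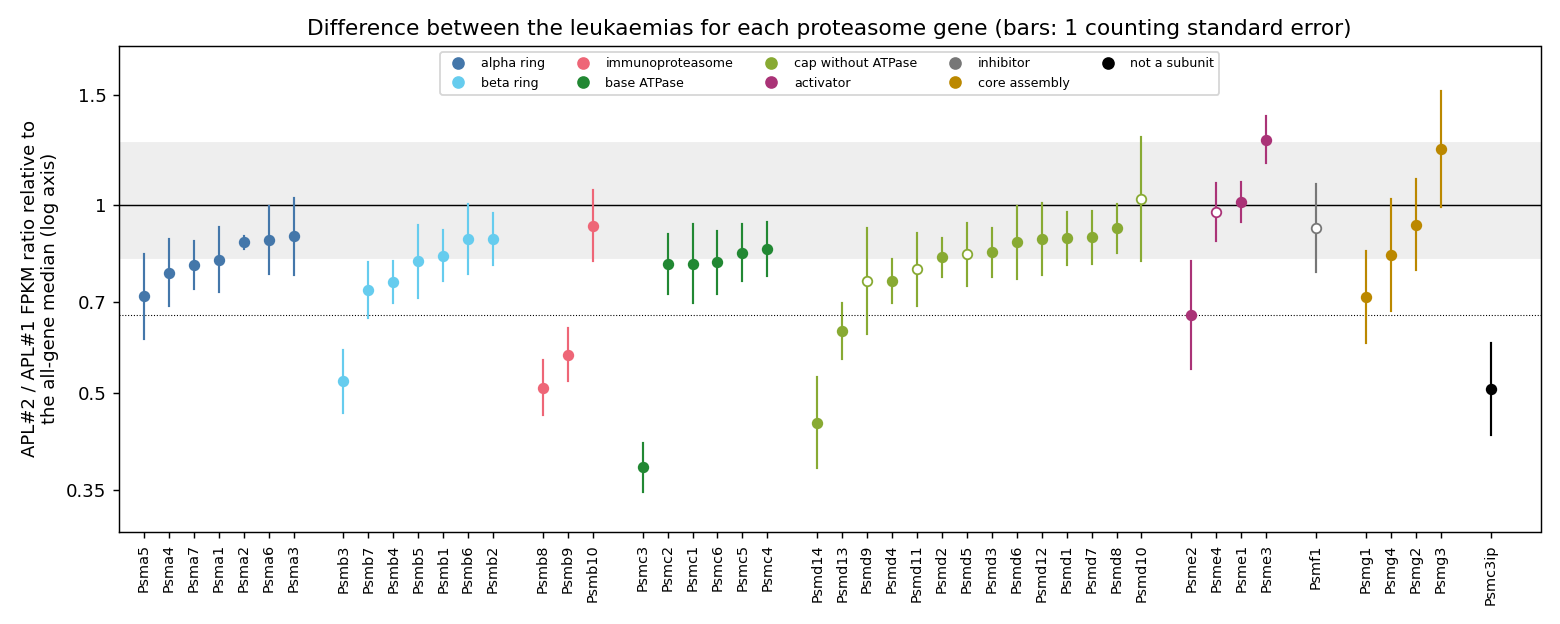
Ratio of APL#2 to APL#1 FPKM for each gene with signal in both libraries, divided by the all-gene median ratio (log axis); bars are 1 counting standard error, open points are genes under a mean of 1 FPKM, the grey band is the interquartile range of all measured genes and the dotted line marks 1.5-fold lower. Core and cap genes form a narrow band just below 1, with Psmb3, Psmb8, Psmb9, Psmc3, Psmd13 and Psmd14 beneath the dotted line, as is Psmc3ip; Psme3 and Psmg3 lie above 1 and Psme1 (1.01) and Psmd10 (1.02) just above it.

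Psmc3 and Psmd14 lie in the stretch of mm9 chromosome 2 from Psmd14 to 1110034G24Rik (61549751 to 132576791), Psmc3 at 90894173 to 90899595 and Psmd14, its first gene, at 61549751 to 61638433. Over the 72 measured genes of the stretch the median relative ratio was 0.517, and 58 were at least 1.5-fold lower. Psmc3, at a relative ratio of 0.380, was the 12th lowest and Psmd14, at 0.449, the 23rd. The bounds were found from these same differences, so the low values of genes inside it are no separate result. The other 4 members of chromosome 2 lie outside the stretch: Psmd5 and Psmb7 on one side, with ratios of 0.696 and 0.611, and Psma7 and Psmf1 on the other, with 0.670 and 0.767. No member lies in the other shifted regions, a stretch of chromosome 6 and chromosome 19. The members were spread over 16 chromosomes, with 9 on chromosome 11 and 6 each on 2 and 14.

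**Figure D4:**
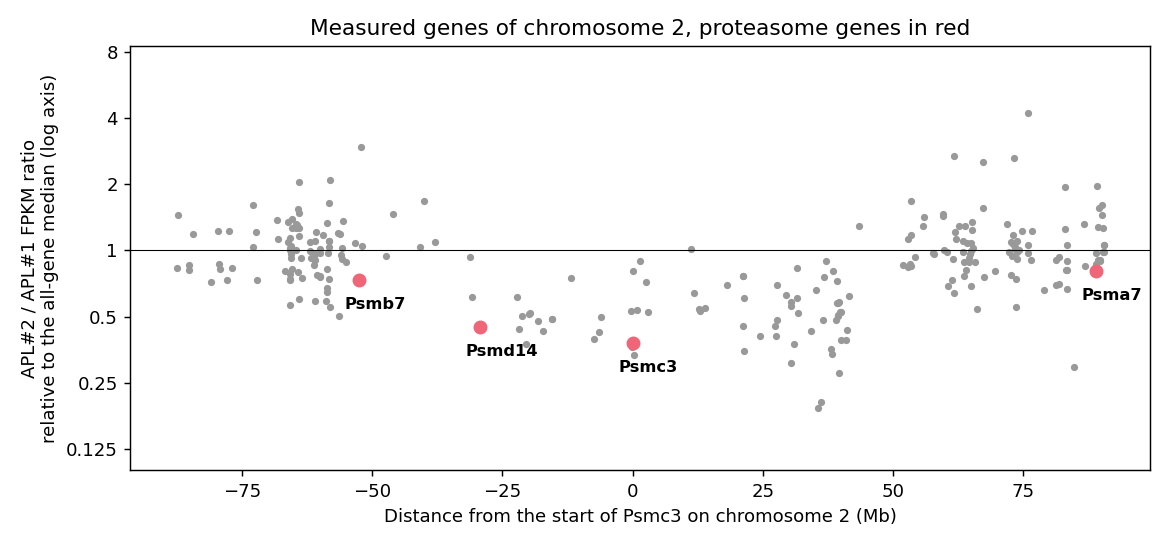
Relative ratio (log axis) of each measured gene of chromosome 2 against its distance from the start of Psmc3 in Mb, proteasome genes in red. Psmd14 (0.449) and Psmc3 (0.380) sit within the low stretch, and Psmb7 and Psma7, outside it, sit near the other proteasome genes.

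With these 2 genes and the immunoproteasome set aside, a subset defined after the values were seen, the constitutive core and cap subunits were closely grouped. All 28 measured ones had a ratio below the all-gene median. Their median ratio was 0.691 with an interquartile range of 0.665 to 0.735, a width of 0.14 on the log2 scale. The width was 0.61 for all measured genes and 0.56 for the 3465 measured genes that are no higher than the second highest member. Both comparison sets kept the genes of the shifted stretches, so the choice of subset adds to the contrast. With the genes set aside put back, the width over the 33 measured core and cap subunits was 0.22. Over the 28, the standard deviation of the log2 ratios was 0.17, and the median counting error of such a ratio was 0.15. The spread was thus of a similar size to the counting error, which is itself an estimate. Psmb3, among the 28, departed from their median by more than its own counting error. Psmb3 and Psmd13 are the 2 of 28 at least 1.5-fold lower, beside 9.83% of all measured genes. Across the 41 measured members, log2 FPKM in both libraries had a Pearson r of 0.93 and a Spearman rho of 0.91, across genes that share both libraries. Over the 4050 measured genes with signal in both, the Pearson r was 0.89. For the 41 members the log2 ratio had an r of -0.02 with the log2 mean level.

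**Figure D5:**
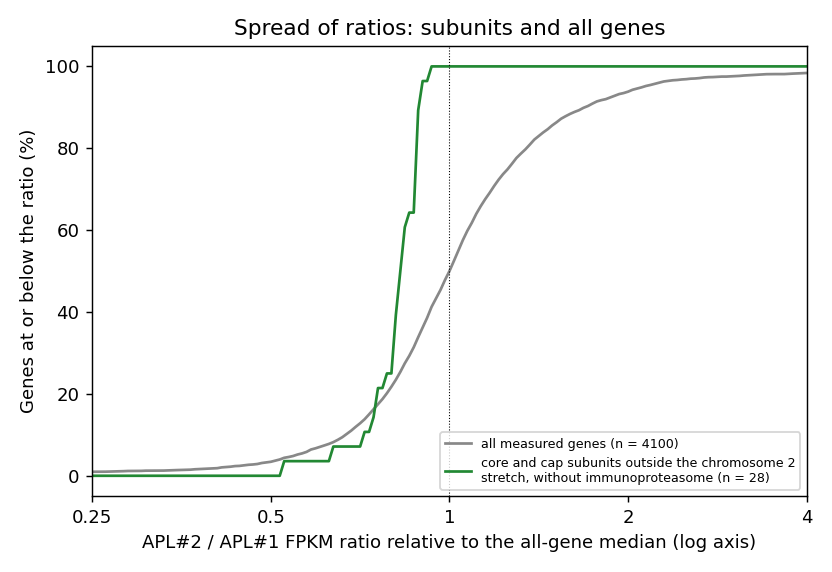
Share of genes (%) at or below each relative ratio (log axis), for all 4100 measured genes (grey) and the 28 measured constitutive core and cap subunits outside the chromosome 2 stretch (green). The subunits rise steeply just below 1, all of them under it, while the genes at large spread to both sides.

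Of the 3 measured activators, 1 lay below the all-gene median. Psme1 and Psme2 encode the partners of the interferon-responsive activator ring and lie 2.19 kb apart on chromosome 14 by the deposited positions. The deposited span of Psme1 is 6761 bases, against 3034 in RefSeq, so the distance between the genes themselves may differ. Psme1 stood at 6.76 and 5.71 FPKM, a relative ratio of 1.01, and Psme2 at 1.49 and 0.829, a relative ratio of 0.668 that is just outside the 1.5-fold line (Psmd13, at 0.629, is just inside). Psme1 exceeded Psme2 by 4.54-fold in APL#1 and 6.88-fold in APL#2. Psme3, the nuclear activator, stood at 1.83 and 1.95 FPKM and was 1 of 2 members higher in APL#2 by plain ratio (1.06). Psme4, a large activator with roles in chromatin, stood at 0.564 and 0.459, and Psmf1 at 0.430 and 0.329. Without centring Psme1 was lower in APL#2 (0.844).

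The chaperones of core assembly were uneven too, at low levels. Psmg1 stood at 1.63 and 0.973 FPKM (ratio 0.595) and its partner Psmg2 at 1.41 and 1.10 (0.777). Psmg3 stood at 0.991 and 1.02 (1.03), the other member higher in APL#2, and its partner Psmg4 at 2.07 and 1.44 (0.695). The counting errors of these log2 ratios were 0.24 to 0.31. Psmc3ip stood at 1.64 and 0.695 FPKM, a ratio of 0.424, on chromosome 11 (100948604 to 100956749 as deposited). That span is 8146 bases, against 3295 in RefSeq. The counting error of Psmc3ip was 0.25 and the authors' deposited table implies an error of 2.06.

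Among 17 listed partners of the proteasome, 11 were measured, 9 of them below the all-gene median. Pomp, the maturation factor that finishes core assembly and leaves the new particle as its first substrate, stood at 5.51 and 2.16 FPKM (ratio 0.393). It was the 1 of 11 at least 1.5-fold lower, beside 9.83% of all measured genes, and none was 1.5-fold higher, beside 14.1%. Subunits of the cap that do not carry a Psm symbol were nearer the all-gene median: Shfm1 stood at 52.1 and 42.1 FPKM (0.809) and Adrm1, a ubiquitin receptor, at 2.90 and 2.36 (0.815). The deubiquitinase gene Uchl5 (1.31 and 1.06) was near it as well. The shuttle factor genes Rad23b (2.21 and 1.47) Ubqln1 (1.28 and 0.776) and Ubqln4 (1.65 and 1.27), with Akirin2 (1.93 and 1.33) and Txnl1 (1.38 and 0.776), were below it, and Zfand2a (1.98 and 2.04) was above.

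Regulators of proteasome genes were mostly at low levels in both libraries, with 3 of 10 measured. Of these 3, 2 were below the all-gene median. Nfe2l1, which raises proteasome gene transcription when degradation falls short, stood at 1.61 and 0.971 FPKM (0.604), and Vcp, the segregase that frees substrates and takes part in Nfe2l1 activation, at 4.16 and 2.35 (0.566). Mafk stood at 1.67 and 1.44. Of those under the minimum, Nfe2l2, in the chromosome 2 stretch, stood at 0.981 and 0.464. Mafg, at 0.783 and 1.16, was the only one of them higher in APL#2. None of these 3 measured genes was 1.5-fold away from the all-gene median.

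Genes of ubiquitin and its activation were not uniformly lower. Ubb, a polyubiquitin gene, had 169.8 FPKM in APL#1 against 112.6 in APL#2. Rps27a, a fusion of ubiquitin with a ribosomal protein, was higher in APL#2 (23.6 and 27.1), and it has pseudogenes, so its level is uncertain. Uba1, the main activating enzyme, stood at 4.15 and 3.21. Of 4 measured cofactors of Vcp, 2 were below the all-gene median, Nsfl1c (2.20 and 1.81) and Ubxn4 (1.98 and 1.34). Ufd1l stood at 1.89 and 1.99, and Ubxn1 (2.62 and 4.19), on chromosome 19, was at least 1.5-fold higher, as were 14.1% of all measured genes.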

How the data were processed

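The authors deposited 1 gene table for both libraries. TopHat2 (2.0.10), Cufflinks, Cuffdiff and the build mm9 are listed, per the submitters' processing notes, with no roles. The annotation, the filters and how libraries were scaled: not given in the sources used here. Its value columns were read as FPKM from the Cuffdiff layout of the deposited table, whose header names no unit. The deposited table also holds the authors' test statistic, a score per gene, and their p-value and q-value, per the file headers. Deposited starts count from 0 and were raised by 1. Differences were computed with Python 3.11.15, numpy 2.4.6 and pandas 2.3.3, as plain ratios and as log2((APL#2 + 1)/(APL#1 + 1)), and centred on the median of genes with mean FPKM of at least 1; the measures were tested on simulated data. Fragments per FPKM were estimated from the commonest ratio, 1.08, of 3168 low genes and 31 genes with 1 transcript in GENCODE M21, and member lengths from RefSeq-matched transcripts. Implied errors are the log2 ratio over the authors' statistic. Named were all catalytic, activator, inhibitor and assembly genes, members at least 1.5-fold away from the all-gene median, class extremes and measured list genes, of which some are not reported here; other members were added to complete the classes. Members and lists were chosen with earlier results of these data known.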

Additional observations from a re-analysis of the deposited data

How the results depend on the processing

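The results were recomputed with other pseudocounts, minimum levels, centrings and members, changing 1 choice at a time. The activators, near 0 as reported (-0.039, relative log2 difference), changed sign to 0.0071 with a pseudocount of 0.1 and with centring on upper quartiles. No other class median or gene followed through the settings changed sign. The number of members at least 2-fold lower on the log2 scale, 1 as reported, was 6 with a pseudocount of 0.1 (6.15% of all measured genes) and 0 with 10 (0.805%), and it was 0 without the shifted stretches. A pseudocount of 10 shrank the class medians, to -0.055 (all members), -0.055 (alpha ring), -0.099 (beta ring), -0.20 (immunoproteasome), -0.051 (base ATPases), -0.048 (cap without ATPase), -0.043 (activators) and -0.016 (core assembly). With a pseudocount of 1, as reported, they were -0.20, -0.24, -0.22, -0.62, -0.19, -0.16, -0.039 and -0.095 in the same order. A minimum mean of 5 FPKM left 4 members, of which 4 were below the all-gene median, 0 at least 1.5-fold (15.6% of all) and 0 at least 2-fold lower (8.20%), and the 1 beta ring gene left stood at -0.41. Without centring, 14 members were at least 1.5-fold lower by plain ratio (7 as reported; 21.8% of all measured genes), and with centring on the FPKM sums 17 (22.9%). Without centring the class medians were -0.37 (all members), -0.41 (alpha ring), -0.39 (beta ring), -0.79 (immunoproteasome), -0.36 (base ATPases), -0.33 (cap without ATPase), -0.21 (activators) and -0.27 (core assembly). With the FPKM sums they were -0.38, -0.43, -0.41, -0.81, -0.37, -0.34, -0.22 and -0.28 in the same order. These settings shift all genes alike. The mean in place of the median put the immunoproteasome at -0.46, and sums over the pairs put the immunoproteasome to constitutive ratio of APL#2 at 0.770 of that in APL#1 (0.653 as the median of pairs). Counts below the reference were 36 of 39 without the shifted stretches and 45 of 47 with no minimum. No paired analysis was possible because each leukaemia has 1 library, and no library could be left out. Depth limits the members near 1 FPKM, whose log2 ratios have counting errors up to 0.31.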
